A study of Mus musculus with 4 samples.

Results

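The genes described here are 6 adrenergic receptors, *Adra1a*, *Adra1b*, *Adra1d*, *Adra2a*, *Adrb1* and *Adrb3*, and 2 G protein-coupled receptor kinases, *Grk2* and *Grk3*. These 8 genes were followed through the snATAC-seq (single-nucleus assay of open chromatin) of mouse inguinal white adipose tissue (iWAT), among 17196 protein-coding genes that carried at least 1 accessible peak. Peaks on the gene body and up to 2000 bases before the start were assigned to the gene, which gave 83 peaks for the 8 genes.

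Noradrenaline from sympathetic nerves reaches adipocytes through these receptors. The β receptors *Adrb1* and *Adrb3* couple to Gs, which activates adenylyl cyclase and protein kinase A and so drives lipolysis and thermogenesis. The α1 receptors *Adra1a*, *Adra1b* and *Adra1d* couple to Gq and phospholipase C, and the α2 receptor *Adra2a* couples to Gi and lowers cyclic AMP. *Grk2* and *Grk3* phosphorylate many, though not all, occupied G protein-coupled receptors, which then bind arrestin and stop signalling. *Adrb3* is the receptor that the agonist used in the study, CL-316,243 (CL), selects.

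The tissue came from male C57BL/6 mice 8 weeks old, in 7 groups of 3 mice each. The day0RT group stayed at room temperature (22 °C) and was the control for all others. The cold groups day1C, day3C and day7C were kept at 6.5 °C for 1, 3 or 7 days. The CL groups day1CL, day3CL and day7CL received CL (1 mg/kg) at room temperature for 1, 3 or 7 days. No vehicle group and no untreated group of day 1, 3 or 7 is named. The labels name no transgene or deletion. No gene expression was measured, so every value below is accessibility of chromatin. A count is a nucleus in which a peak was open, and the counts of a gene are added up over its peaks. A level is given as CPM, the counts of the gene divided by all gene counts of the same library and multiplied by 10 to the power of 6, a library being the nuclei of 1 mouse and 1 of the 12 annotated clusters, with at least 10 nuclei.

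A mouse contributed 1111 to 2021 nuclei and 1340376 to 6916698 counts. The median counts per nucleus ranged from 762 in day1CL to 1584.5 in day3C and were 2561 for white adipocytes (the cluster labelled Adipocyte), 3087 for beige adipocytes and 974 for B cells. A set of 4218 barcode sequences recurred between mice, each in nuclei of at least 2 animals. In 3 mice, lymphocyte clusters made up 11.9% (day1CL replicate 3), 14.1% (day3CL replicate 2) and 36.8% (day3C replicate 1) of nuclei, against 58.2% to 90.8% in the other mice, and results that changed without these 3 mice are given both ways. The first 2 mice of day1CL had 29 and 68 adipocyte nuclei, the third had 654, and only the third had enough beige nuclei for a library. The adipocyte marker genes summed to 1614 CPM ± 184 (SD, n = 21 mice) in white and 1598 CPM ± 176 (n = 19) in beige adipocytes. That list matched both labels and did not separate them. The beige adipocyte genes were highest in beige adipocytes (501 CPM), with white adipocytes at 252 CPM. Marker lists of endothelial, progenitor, B, macrophage and dendritic cells were each highest in a cluster so labelled. The cluster labelled VSMC, for vascular smooth muscle cells, did not match its label, and its beige adipocyte genes were at 369 CPM. Its summed level over skeletal muscle genes was 1789 CPM ± 269 (SD, n = 10 mice) and the smooth muscle and pericyte genes were highest in APC2 (604 CPM ± 116, n = 19), a cluster labelled as adipocyte progenitors.

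Sequence is shown for 5 stretches that carry differences described below, with coordinates on mm10 (GRCm38). Letters came from the GRCm38 genome and run 5′ to 3′ on the strand of the gene. Capitals mark matches, on either strand, to the motifs TCAAGGTCA (estrogen-related receptors), CCCNNGGG (early B cell factors, EBF) and TTGGCA (nuclear factor I, NFI). The *Grk3* stretch is the 300 bases upstream of the outermost coding start, minus strand, chr5:113015792-113016091. The *Adra1a* stretches lie in introns at chr14:66657515-66657814 and chr14:66750001-66750300, plus strand, the *Adrb1* stretch lies in an intron at chr19:56726774-56727073, plus strand, and the *Adrb3* stretch lies upstream of the coding transcripts at chr8:27239553-27239852, minus strand. The last also overlaps an exon of the antisense gene *Gm45470*.
Grk3 upstream of the start: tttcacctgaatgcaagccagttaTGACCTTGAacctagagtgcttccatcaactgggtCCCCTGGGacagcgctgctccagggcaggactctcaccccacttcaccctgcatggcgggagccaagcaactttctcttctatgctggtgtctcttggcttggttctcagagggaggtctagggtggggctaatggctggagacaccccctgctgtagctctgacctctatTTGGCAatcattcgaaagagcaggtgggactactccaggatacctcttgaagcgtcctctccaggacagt
Adra1a intron, nearer the start: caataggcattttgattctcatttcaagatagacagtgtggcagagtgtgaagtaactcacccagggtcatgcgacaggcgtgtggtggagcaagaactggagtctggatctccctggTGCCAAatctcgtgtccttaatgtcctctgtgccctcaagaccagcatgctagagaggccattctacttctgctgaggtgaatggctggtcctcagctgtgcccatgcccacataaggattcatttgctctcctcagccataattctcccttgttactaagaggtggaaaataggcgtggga
Adra1a intron, farther from the start: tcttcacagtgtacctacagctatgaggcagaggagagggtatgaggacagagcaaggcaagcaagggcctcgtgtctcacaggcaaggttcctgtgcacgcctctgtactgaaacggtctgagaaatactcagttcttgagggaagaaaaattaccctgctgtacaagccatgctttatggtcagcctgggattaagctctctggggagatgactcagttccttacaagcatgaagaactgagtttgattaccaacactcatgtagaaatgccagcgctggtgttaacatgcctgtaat
Adrb1 intron: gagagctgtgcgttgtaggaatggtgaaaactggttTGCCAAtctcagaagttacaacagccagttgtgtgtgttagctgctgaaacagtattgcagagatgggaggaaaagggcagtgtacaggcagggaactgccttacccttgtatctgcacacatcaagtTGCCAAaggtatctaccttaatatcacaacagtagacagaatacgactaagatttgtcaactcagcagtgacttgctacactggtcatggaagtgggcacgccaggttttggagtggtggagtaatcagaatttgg
Adrb3 distal: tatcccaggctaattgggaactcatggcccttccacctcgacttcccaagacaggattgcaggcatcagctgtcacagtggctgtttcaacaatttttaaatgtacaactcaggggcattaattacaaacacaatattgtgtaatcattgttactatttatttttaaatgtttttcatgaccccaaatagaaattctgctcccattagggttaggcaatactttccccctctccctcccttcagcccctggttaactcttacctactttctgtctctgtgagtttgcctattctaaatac

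The *Grk3* stretch held 1 match each of TCAAGGTCA, read on the opposite strand as TGACCTTGA, of CCCNNGGG and of TTGGCA. The *Adra1a* stretch nearer the start held 1 match of TTGGCA, the *Adrb1* stretch held 2, and the other 2 stretches held none of the motifs. In the central 300 bases of all 189598 peaks, TCAAGGTCA was present in 0.632%, TGACGTCA (the cyclic AMP response element) in 0.478%, CCCNNGGG in 11.2% and TTGGCA in 23.6%. Among the 83 peaks of the 8 genes the central 300 bases held TCAAGGTCA in 0, TGACGTCA in 0, CCCNNGGG in 16 and TTGGCA in 21. The match of TCAAGGTCA upstream of *Grk3* lay outside the central window of its peak. The shorter AAGGTCA, which TCAAGGTCA contains, was present in 7.22% of all peaks and in 8 of the 83.

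Of the 8 genes, 4 were most accessible in an adipocyte cluster, 2 in APC2, 1 in B cells and 1 in dendritic cells. The cluster in which each gene was highest stayed the same after nuclei under 1000 counts were left out. With promoter peaks only, which could be examined for 7 of the 8 genes and not for *Adra1b*, *Adra1d* moved from white to beige adipocytes and the other genes kept their cluster. *Adrb3* was highest in beige instead of white adipocytes without day0RT replicate 2, and no other gene changed when a single mouse was left out. The clusters had been made from the same counts, so the order of levels is a description of annotated nuclei. Neighbours in the order were compared by a sign-flip permutation test of paired log2(CPM + 1) values within mice, two-sided, with p-values adjusted over the 88 neighbouring pairs of the 8 genes.

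*Adrb3* (chr8:27225776-27250616, minus strand, 7 peaks) was open mainly in adipocytes. It measured 152 CPM ± 30.6 (SD, n = 21) in white and 147 CPM ± 42.2 (n = 19) in beige adipocytes, which did not differ past the threshold (adjusted permutation p = 0.514, white higher in 10 of 19 mice). The next cluster, macrophages, was at 12.4 CPM ± 21.8, below beige in 19 of 19 mice (adjusted permutation p = 0.00176). The lowest level was in B cells at 2.97 CPM ± 2.67. Per nucleus, 33.1% of white and 34.6% of beige nuclei had at least 1 count at *Adrb3*, against 0.284% of B cells, which were also read less deeply.

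*Adrb1* (chr19:56722199-56733113, plus strand, 5 peaks), the other Gs-coupled receptor, was highest in beige adipocytes at 115 CPM ± 43.1 (n = 19), above white at 80.3 CPM ± 13.8 (n = 21) in 14 of 19 mice (adjusted permutation p = 0.0204). White in turn was above endothelial cells at 45.6 CPM ± 52.1 (n = 15; adjusted permutation p = 0.0436). The endothelial libraries held 15 counts in all, and 5 of the 15 mice were at 0. Macrophages stood at 36.9 CPM ± 44.6 and the lowest cluster, Cd4 T cells, at 3.63 CPM ± 3.53.

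Among the α1 receptors, *Adra1a* (chr14:66635251-66771168, plus strand, 24 peaks) separated the adipocyte clusters. It was at 375 CPM ± 62.9 (n = 19) in beige and 178 CPM ± 31.1 (n = 21) in white adipocytes, with beige higher in 19 of 19 mice (adjusted permutation p = 0.00176). White was above the VSMC cluster at 51.3 CPM ± 55.0 in 9 of 10 mice (adjusted permutation p = 0.043), and B cells were lowest at 4.44 CPM ± 3.98. At least 1 count was found in 58.4% of beige, 34.7% of white and 0.493% of B cell nuclei.

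*Adra1d* (chr2:131545850-131562283, minus strand, 7 peaks) was at 128 CPM ± 19.4 in white and 113 CPM ± 24.8 in beige adipocytes, followed by APC1 at 89.5 CPM ± 56.0 and APC2 at 69.4 CPM ± 44.5. None of these neighbours differed past the threshold, and B cells were lowest at 4.35 CPM ± 2.85. *Adra1b* (chr11:43774606-43901210, minus strand, 10 peaks) was at 91.6 CPM ± 52.7 in APC2, 83.7 CPM ± 35.3 in beige, 73.7 CPM ± 12.1 in white and 57.4 CPM ± 34.8 in APC1, and no neighbouring clusters in its order differed past the threshold. Its lowest level was 1.67 CPM ± 2.19 in Cd8 T cells. *Adra1b* and *Adra1d* were thus open in the clusters labelled as progenitors, APC1 and APC2, as well as in adipocytes.

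*Adra2a* (chr19:54044151-54048982, plus strand, 2 peaks), the Gi-coupled receptor, was highest in APC2 at 31.8 CPM ± 20.1 (n = 19), above dendritic cells at 10.4 CPM ± 17.1 (n = 17; adjusted permutation p = 0.0438). The APC2 libraries held 35 counts in all, with 3 of 19 mice at 0. The dendritic libraries held 11, with 10 of 17 mice at 0. Such zeros weigh on the paired log2 differences behind that p. White adipocytes were at 7.57 CPM ± 3.47 and beige adipocytes at 5.26 CPM ± 5.91. The VSMC cluster was lowest, with 1 count in all 10 mice. Endothelial cells had a higher mean than white adipocytes, 8.07 CPM, through 3 of 15 mice. Their libraries held 5 counts in all, and 12 mice were at 0. The mean of the paired log2 differences, endothelial minus white, was -2.11 (adjusted permutation p = 0.0461). Zeros in shallow libraries weigh heavily on that mean, so it does not order these clusters.

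The kinases were highest outside adipocytes. *Grk2* (chr19:4286001-4306222, minus strand, 9 peaks) was highest in lymphocytes and macrophages, with 416 CPM ± 35.3 in B cells (n = 21), 376 CPM ± 75.8 in Cd4 T cells, 368 CPM ± 64.5 in Cd8 T cells, 323 CPM ± 90.3 in macrophages and 299 CPM ± 80.7 in the cluster labelled Tcell. Neighbours among these 5 did not differ past the threshold, and Tcell was above dendritic cells at 183 CPM ± 71.2 (n = 17; adjusted permutation p = 0.0132). White and beige adipocytes were at 65.6 CPM ± 18.1 and 52.6 CPM ± 41.6. *Grk3* (chr5:112910482-113015791, minus strand, 19 peaks) was highest in dendritic cells at 317 CPM ± 79.9 (n = 17), above macrophages at 227 CPM ± 70.9 (adjusted permutation p = 0.0377, higher in 14 of 17 mice). Beige adipocytes came next at 85.1 CPM ± 28.9, white adipocytes followed at 26.1 CPM ± 10.2 after the VSMC cluster and APC2, and Cd4 T cells were lowest at 5.78 CPM ± 5.79.

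**Figure D1:**
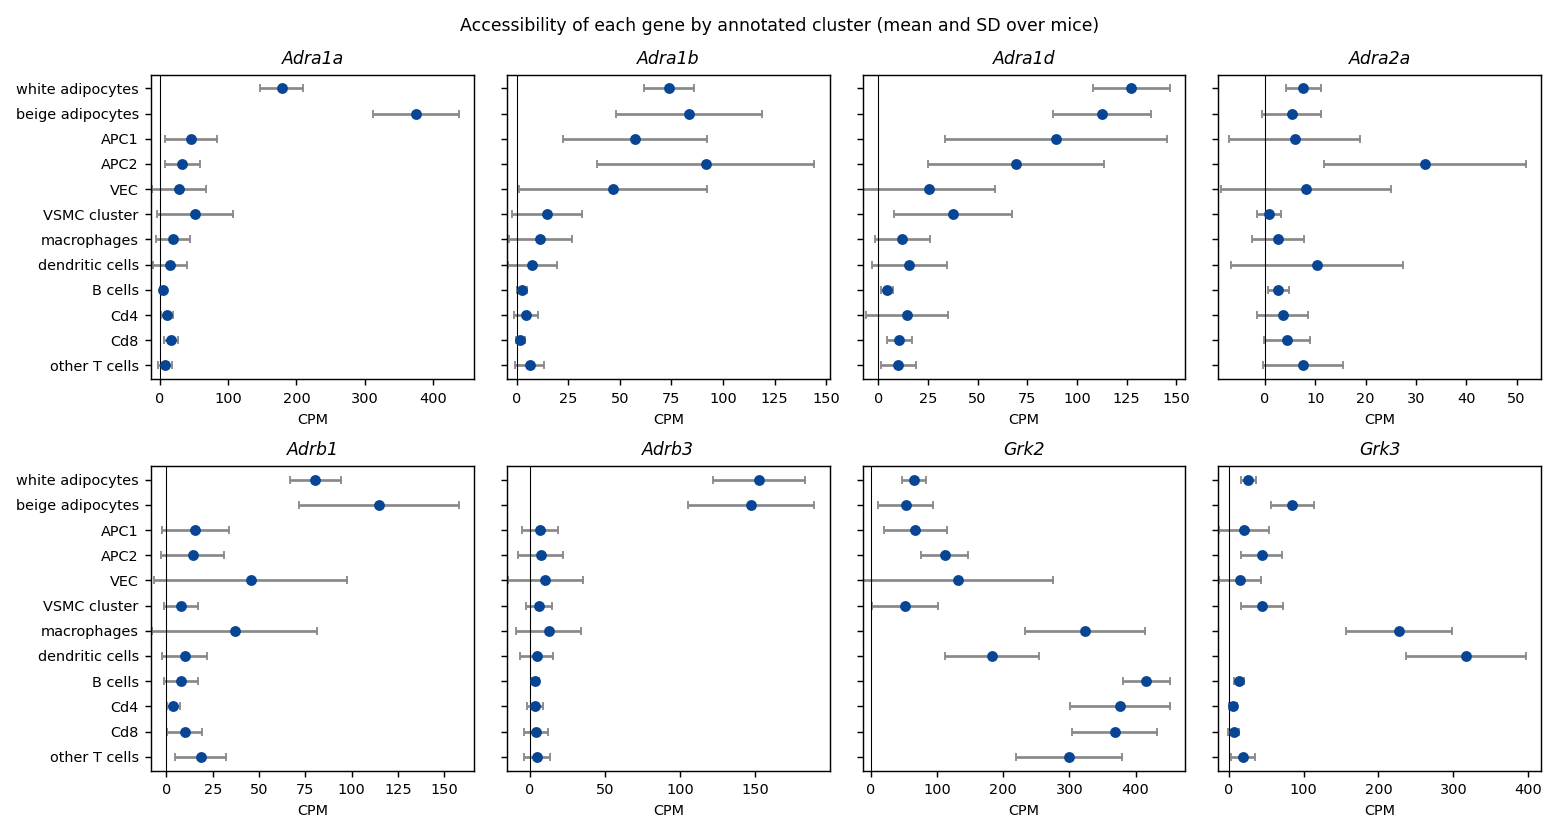
Accessibility of the 8 genes in CPM of gene counts, for each annotated cluster, with the mean over mice and the SD. The levels of *Adrb3* in white (152 CPM) and beige adipocytes (147 CPM) stand apart from the next cluster at 12.4 CPM, while *Grk2* is highest in B cells (416 CPM) and *Grk3* in dendritic cells (317 CPM).

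Over the 12 cluster means of log2(CPM + 1), the protein-coding genes with the pattern most like each of the 8 genes were taken from 16133 genes with at least 10 CPM in some cluster. The points share libraries and depth, and Pearson's r is given as a description. For *Adrb3* they were *BC035947* (r = 0.996), *Mgat4d* (0.996) and *Serpina3a* (0.994), and for *Adrb1* they were *Nrg4* (0.962), *Rpl9-ps1* (0.943) and *Aspg* (0.921). *Adra1a* was most like *Cdo1* (0.957), *Cyp4a14* (0.954) and *Ppp1r3g* (0.953). *Adra1b* was most like *Gpr39* (0.988), *Adam12* (0.988) and *Lamb1* (0.984). For *Adra1d* the nearest were *Amy1*, *Myocd* and *Pla2g2e* (0.975 each), and for *Adra2a* they included *Slc12a5* (0.916) and *1700023F06Rik* (0.914). *Grk2* was most like *Sp100* (0.984), *B9d2* (0.981) and *Lst1* (0.981), and *Grk3* was most like *Aqp4* (0.937), *Nhlrc2* (0.932) and *Atg4c* (0.916). Among the 8 genes themselves the highest r was 0.939 between *Adra1a* and *Adra1d*, and the lowest was -0.70 between *Adra1d* and *Grk2*.

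Beige adipocytes were compared with white adipocytes over mice, and the model also held the treatment group. *Adra1a* and *Grk3* were the most different of the genes, *Adrb1* and *Adra1b* were higher in beige by less, and *Adrb3*, *Adra1d* and *Grk2* did not pass the threshold. *Adra2a* had too few counts to be tested. Of 7 tested genes 4 were called (edgeR, adjusted p under 0.05), all higher in beige, against 28.8% of all 12770 genes tested in either direction. The median log2 fold change of the 7 was 0.30, and that of all genes was 0.01. The clusters were defined on the same counts, so these values describe the annotated clusters and are no independent test.

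*Adra1a* ranged in white adipocytes from 89.0 to 228 CPM with a median of 177 over 21 mice, and in beige adipocytes from 225 to 518 CPM with a median of 373 over 19 mice. The ranges met only at their ends, and beige was above white in every mouse with both libraries. The log2 fold change was 0.99 (SE 0.065, edgeR adjusted p = 2.6e-27), which ranked 10 among all genes by p. *Grk3* ranged from 5.70 to 50.8 CPM in white (median 24.8) and from 35.9 to 141 CPM in beige (median 79.6), with beige higher in 18 of 19 mice. Its log2 fold change was 1.70 (SE 0.122, adjusted p = 3.18e-24). Both genes kept this call in every alternative run except that with promoter peaks only, where *Adra1a* had a log2 fold change of 0.23 (adjusted p = 0.273).

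*Adrb1* ranged from 55.7 to 104 CPM in white (median 78.7) and from 62.4 to 249 CPM in beige (median 99.5), and the groups overlapped over most of their range. The log2 fold change was 0.37 (SE 0.09, adjusted p = 0.000704). *Adra1b* had a median of 74.9 CPM in white and 93.2 CPM in beige, with beige from 0 to 139 CPM. Its log2 fold change was 0.30 (SE 0.098, adjusted p = 0.012), and it fell to 0.23 without day3C replicate 1 (adjusted p = 0.0969) and to 0.19 without the 3 low-lymphocyte mice (adjusted p = 0.288). Within mice, beige was above white at *Adra1b* in 14 of 19, but the mean of the paired log2 differences was -0.205 (adjusted permutation p = 0.834). That mean includes 1 beige library of day0RT at 0 CPM, which weighs heavily on the scale of log2(CPM + 1). *Adrb1* kept its call in every alternative except promoter peaks only (0.16, adjusted p = 0.355).

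*Adrb3*, the receptor of CL, had a median of 153 CPM in white (95.3 to 217) and 140 CPM in beige (62.1 to 211), with beige higher in 9 of 19 mice and a log2 fold change of -0.09 (SE 0.084, adjusted p = 0.482). *Adra1d* had medians of 124 and 116 CPM in white and beige and a log2 fold change of -0.07 (SE 0.084, adjusted p = 0.642). *Grk2* had medians of 67.0 and 56.9 CPM and a log2 fold change of -0.13 (SE 0.128, adjusted p = 0.511). For these 3 genes the white and beige values lay over each other. *Adra2a* had a median of 8.03 CPM in white and 3.75 CPM in beige, with beige higher in 6 of 19 mice.

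**Figure D2:**
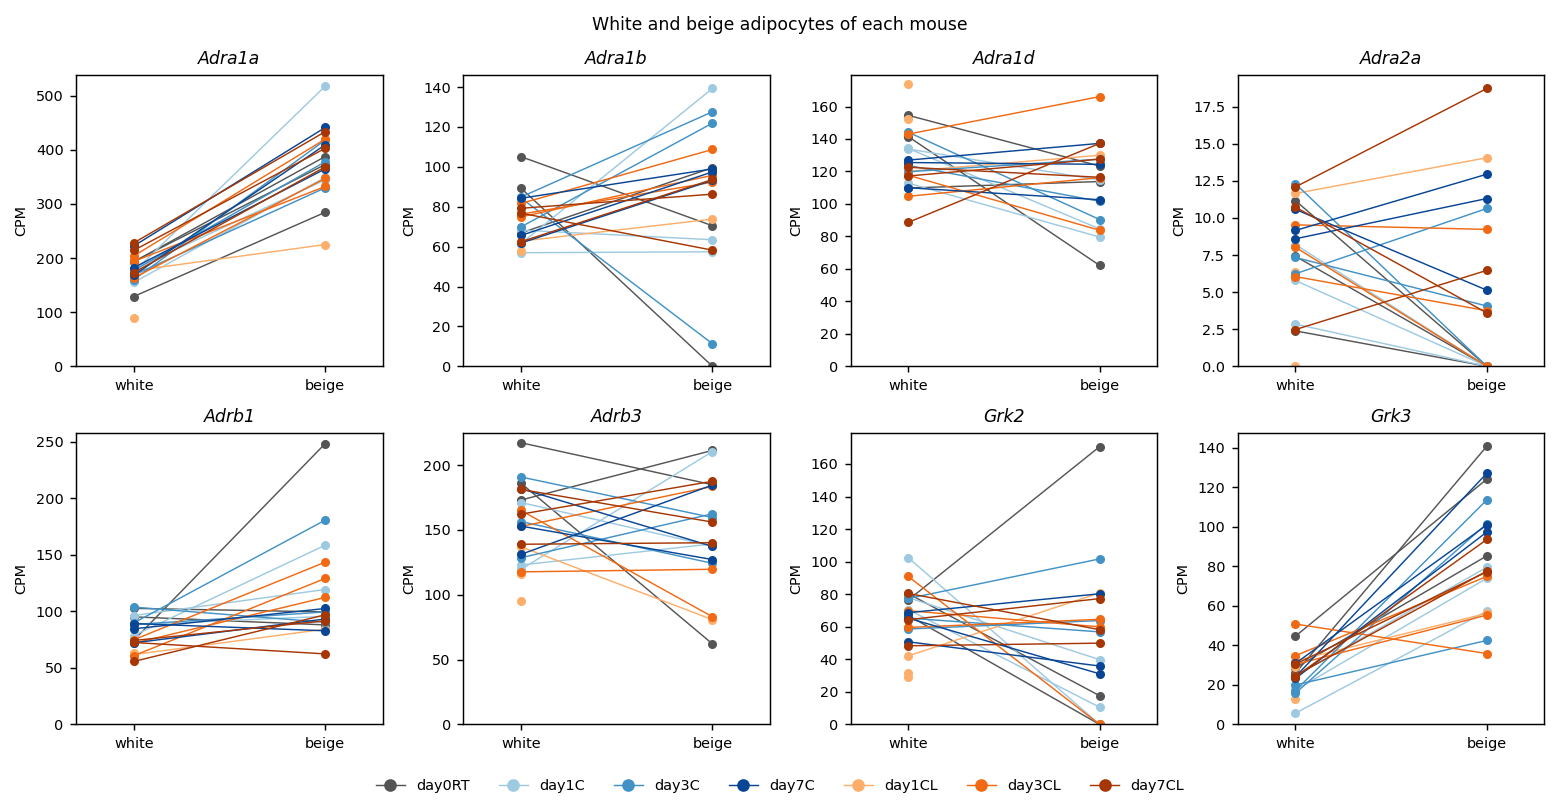
Level of each of the 8 genes in CPM of gene counts in white and beige adipocytes, 1 point per mouse, with lines joining the libraries of the same mouse. Beige lies above white in 19 of 19 mice for *Adra1a* and in 18 of 19 for *Grk3*, while *Adrb3* goes up in 9 of 19.

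The 83 peaks of the 8 genes comprised 58 in introns, 9 at the start of a coding transcript, 6 in coding sequence, 4 in untranslated exons, 3 in noncoding exons and 3 upstream. Of these, 22 passed the filter on counts and were tested between beige and white adipocytes. In beige 9 were higher and 2 were lower (edgeR, adjusted p under 0.05), and 26.9% of all 24854 peaks tested were called in either direction. The filter works on CPM in single libraries, so a peak can pass through the cluster where it is higher. Thus chr14:66749908-66750392 was tested with 79 white and 77 beige counts, and chr2:131550834-131551313 was not, with 272 and 23. The numbers higher and lower are therefore no measure of direction. Peak levels are given as CPM of all peak counts of the library. Since the clusters were made from the same peaks, these differences show where along each gene the annotated clusters differ.

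At *Adra1a* the peak over the start (chr14:66635070-66636592) had medians of 22.9 CPM in white and 26.9 CPM in beige and a log2 fold change of 0.13 (SE 0.146, adjusted p = 0.562). The other 7 tested peaks of the gene, 22108 to 114594 bases downstream of the nearest coding start, were all higher in beige. The largest fold was at chr14:66749908-66750392, in an intron, where the medians were 2.93 CPM in white and 14.4 CPM in beige and the log2 fold change was 2.08 (SE 0.276, adjusted p = 1.12e-11). It was followed by chr14:66657406-66657923, with medians of 4.97 and 22.4 CPM and a log2 fold change of 1.66 (SE 0.236, adjusted p = 2.74e-10). The sequences of both are among those printed above. The beige level was above the white level of the same mouse in 16 and 18 of 19 mice at these peaks.

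The peak at chr14:66748100-66748838 was higher in beige in 19 of 19 mice, with medians of 9.76 and 33.6 CPM and a log2 fold change of 1.41 (adjusted p = 1.81e-13). The remaining *Adra1a* peaks were chr14:66658245-66658801 (log2 fold change 1.29), chr14:66672311-66673324 (1.29), chr14:66732463-66733154 (1.04) in an untranslated exon, and chr14:66720053-66720990 (0.33, adjusted p = 0.0495). The last had a log2 fold change of 0.002 with no filter on low counts (adjusted p = 0.994), and it was not called with the mouse as a block (0.30, adjusted p = 0.0864) or with DESeq2 (adjusted p = 0.0655). It was also not called without the 3 low-lymphocyte mice (adjusted p = 0.0995) or without most single mice (up to adjusted p = 0.245, without day7CL replicate 1). The called differences of *Adra1a* thus lay in the gene body, and the difference at the start did not pass the threshold.

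At *Grk3* the single tested peak was the one over the start (chr5:113015333-113016363), which contains the *Grk3* stretch printed above. It had a median of 9.85 CPM in white (0 to 17.7) and 30.9 CPM in beige (8.40 to 86.4), was higher in beige in 19 of 19 mice, and had a log2 fold change of 1.54 (SE 0.184, adjusted p = 5.8e-14). At *Adrb1* the peak in the intron at chr19:56726742-56727104, 4724 bases downstream of the coding start, had a log2 fold change of 1.19 (SE 0.265, adjusted p = 9.5e-05) and medians of 4.88 and 12.6 CPM. The *Adrb1* start peak (chr19:56721281-56722599) had medians of 28.2 and 33.6 CPM and did not pass the threshold (log2 fold change 0.24, adjusted p = 0.184).

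The 2 peaks lower in beige belonged to genes whose summed level did not pass the test. At *Adrb3* the peak over the start of transcripts Adrb3-202 and Adrb3-203 (chr8:27227912-27228846) had medians of 37.7 CPM in white and 32.0 CPM in beige and a log2 fold change of -0.48 (SE 0.129, adjusted p = 0.00193), with beige higher in 4 of 19 mice. At *Adra1d* an intronic peak (chr2:131557877-131558520) had medians of 21.5 and 14.6 CPM and a log2 fold change of -0.60 (adjusted p = 0.00439). With no filter on low counts the log2 fold changes of these peaks were -0.79 and -0.90. Every other called peak also had a lower log2 fold change in that run, so the shift is not particular to these 2 peaks. The *Grk3* start peak was then at 1.22 and the *Adra1a* peak at chr14:66749908-66750392 at 1.80. The start peaks of *Adra1d* (chr2:131562150-131563163, log2 fold change 0.15, adjusted p = 0.516) and *Grk2* (chr19:4305557-4306577, -0.27, adjusted p = 0.369) did not pass. Peaks over the coding starts of *Adra1b* and *Adra2a*, and a second one of *Grk2*, did not pass the filter for the test.

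**Figure D3:**
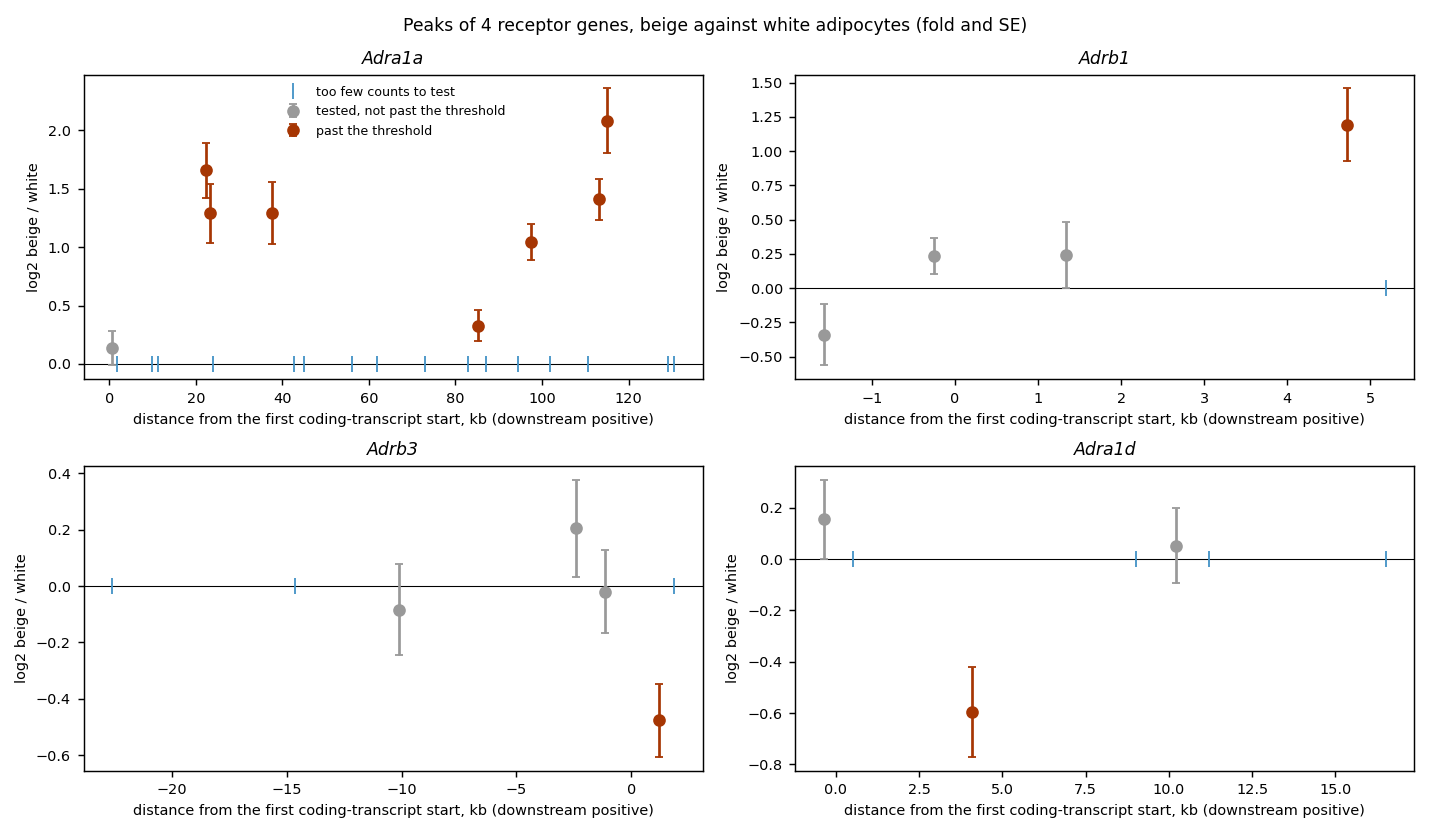
Log2 fold change and SE of tested peaks of *Adra1a*, *Adrb1*, *Adrb3* and *Adra1d* between beige and white adipocytes. They are plotted by distance in kb from the outermost coding start, with ticks at 0 for peaks that did not pass the filter on counts. The *Adra1a* peaks that were called lie within the gene body with log2 fold changes of 0.33 to 2.08, while the peak at its start is at 0.13.

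Cold and CL groups were each compared with day0RT over white and beige adipocyte nuclei summed per mouse. In such a sum, a larger share of beige nuclei and greater accessibility per nucleus cannot be told apart. All 6 comparisons share the 3 day0RT mice. *Adra1a* rose after 7 days of cold and after 7 days of CL, *Adrb3* fell after 1 day of CL, and no other of the 7 tested genes was called at any time. *Adra2a* again had too few counts, with group means from 5.04 to 9.64 CPM.

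In *Adra1a* the 3 day0RT mice measured 151, 204 and 206 CPM, the day7C mice 251, 286 and 242 CPM, and the day7CL mice 249, 261 and 221 CPM. Neither treated group overlapped day0RT. The log2 fold change was 0.45 in day7C (SE 0.124, edgeR adjusted p = 0.0159), where 5.09% of 14429 genes were called, and 0.40 in day7CL (SE 0.122, adjusted p = 0.029), where 7.81% were called. At the earlier times the group means were 194 CPM (day1C), 196 CPM (day3C), 177 CPM (day1CL) and 208 CPM (day3CL), each overlapping day0RT at 187 CPM.

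The beige share of adipocyte nuclei was also higher in both day 7 groups than in day0RT. It was 12.2%, 7.69% and 7.72% in the day0RT mice, 32.5%, 29.7% and 26.1% in the day7C mice, and 22.1%, 14.5% and 23.5% in the day7CL mice. Within day0RT and within day7CL the mouse with the highest share had the lowest *Adra1a* level. In day7C the mouse with the lowest share had the lowest level. The summed level of the 6 beige adipocyte genes, none of them at 0, was 176 to 254 CPM in day0RT, 345 to 404 CPM in day7C and 286 to 355 CPM in day7CL. In white adipocyte nuclei alone, the log2 fold change of *Adra1a* was 0.12 in day7C (adjusted p = 0.784) and 0.29 in day7CL (adjusted p = 0.216). In beige nuclei alone its mean was 348 CPM ± 55.7 in day0RT, 405 CPM ± 38.4 in day7C and 402 CPM ± 32.6 in day7CL, with overlapping ranges. Without day0RT replicate 1 the log2 fold change in both cell types together was 0.32 in day7C (adjusted p = 0.209) and 0.26 in day7CL (adjusted p = 0.282). The call was also lost without day7C replicate 2 (0.39, adjusted p = 0.091), without day7CL replicate 1 (0.38, adjusted p = 0.168) and without day7CL replicate 2 (0.36, adjusted p = 0.0779).

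*Adrb3* measured 213, 179 and 176 CPM in the day0RT mice and 81.9, 84.3 and 126 CPM in the day1CL mice, without overlap. The log2 fold change was -0.69 (SE 0.168, adjusted p = 0.00861), and 2.61% of genes were called in this comparison. After 3 and 7 days of CL the mice measured 118 to 160 CPM and 139 to 175 CPM, with log2 fold changes of -0.30 (adjusted p = 0.195) and -0.27 (adjusted p = 0.211). The cold groups had log2 fold changes of -0.37 at day 1, -0.31 at day 3 and -0.29 at day 7 (adjusted p = 0.338, 0.246 and 0.238). Only day3C among the treated groups overlapped day0RT, although day1CL alone was called. The highest day7CL mouse, at 175.1 CPM, lay just below the lowest day0RT mouse, at 175.6 CPM. In white nuclei alone day3C, day7C and day7CL overlapped day0RT. How many of all genes lacked overlap was not determined, so these separations cannot be set against that share.

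The day1CL value of *Adrb3* rested on unequal mice. The 2 mice with the lower levels had 29 and 68 adipocyte nuclei, and without the third mouse the log2 fold change was -1.21 (adjusted p = 0.173). Without all 3 low-lymphocyte mice it was -1.20 (adjusted p = 0.147), and without day0RT replicate 1 it was -0.61 (adjusted p = 0.0557). In white nuclei alone the day1CL mice measured 116, 95.3 and 137 CPM against 217, 186 and 173 CPM in day0RT, with a log2 fold change of -0.55 (adjusted p = 0.0924). Each of these kept the direction. Over white and beige nuclei together, the summed level of the 5 adipocyte genes, none at 0, was 1351 to 1580 CPM in day1CL and 1611 to 1877 CPM in day0RT, and that of the 5 B cell genes other than *Ebf1*, none at 0, was 67.4 to 81.9 CPM and 112 to 160 CPM. Both lists were lower in day1CL without overlap, as *Adrb3* was, and their part in the result was not tested.

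The other genes did not pass the threshold in any treated group. *Adrb1* measured 102, 84.3 and 94.7 CPM in day0RT and 77.5, 62.4 and 70.1 CPM in day7CL, without overlap, with a log2 fold change of -0.38 (adjusted p = 0.0956). It was -0.53 in day1CL (adjusted p = 0.104) and between -0.15 and -0.02 in the cold groups. *Grk2* had a log2 fold change of -0.68 in day1CL (adjusted p = 0.0709), with 81.9, 33.7 and 50.0 CPM against 90.0, 63.2 and 76.3 CPM. *Grk3* had a log2 fold change of 0.54 in day7C (adjusted p = 0.14) and -0.72 in day1C (adjusted p = 0.328), with day1C mice at 22.9, 12.4 and 29.8 CPM against 36.8, 49.2 and 33.5 CPM. For *Adra1b* the log2 fold changes lay between -0.45 and -0.13 in the 6 groups, and for *Adra1d* between -0.22 and -0.11. None of these was called, and for *Adra1d* in day1CL the mean over mice ran the other way from the fitted value, with 164, 146 and 122 CPM against 110, 137 and 152 CPM in day0RT. The lowest of the day1CL levels was that of the mouse with 654 adipocyte nuclei, and without that mouse the log2 fold change was 0.10 (adjusted p = 0.967).

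By group, 0 of 7 genes were called in day1C, where 0.34% of all genes were, 0 in day3C (1.67%) and 0 in day3CL (4.77%). At an unadjusted p under 0.05 edgeR gave 3, 1 and 2 of the 7 in these groups, and 1437, 2072 and 2715 of all 14429 genes. DESeq2 called 0 of the 7 in each, leaving 2, 4 and 1 of the 7 without an adjusted p. Fitted fold changes below 0 were found for 6 of 7 genes in day1C and day3C, 7 of 7 in day1CL and 5 of 7 in day7C, day3CL and day7CL. The mean CPM differed in direction from the fitted value for *Adra1d* in day1CL, *Adrb1* in day3C and *Grk3* in day3CL and day7CL. The median log2 fold change of the 7 was -0.14 in day1C, -0.18 in day3C, -0.15 in day7C, -0.44 in day1CL, -0.15 in day3CL and -0.22 in day7CL. The median of all genes lay between -0.01 and 0 in every group.

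**Figure D4:**
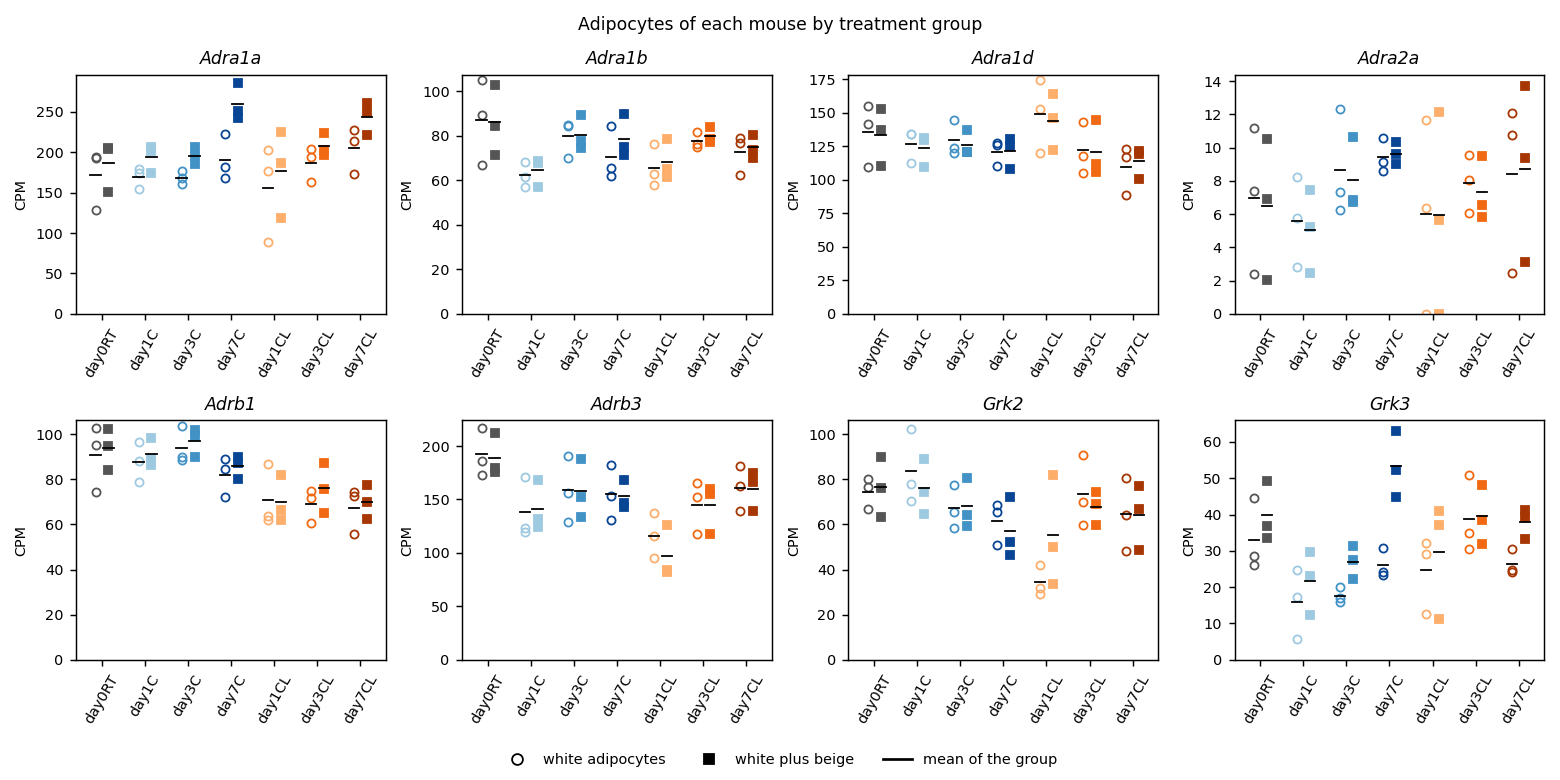
Level of each of the 8 genes in CPM of gene counts, by group and mouse, in white adipocytes (open circles) and over white and beige adipocyte nuclei together (filled squares), with the group means as lines. In the filled squares the day7C and day7CL mice lie above day0RT for *Adra1a* (242 to 286 and 221 to 261 CPM against 151 to 206 CPM), and the day1CL mice lie below it for *Adrb3* (81.9 to 126 CPM against 176 to 213 CPM).

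**Figure D5:**
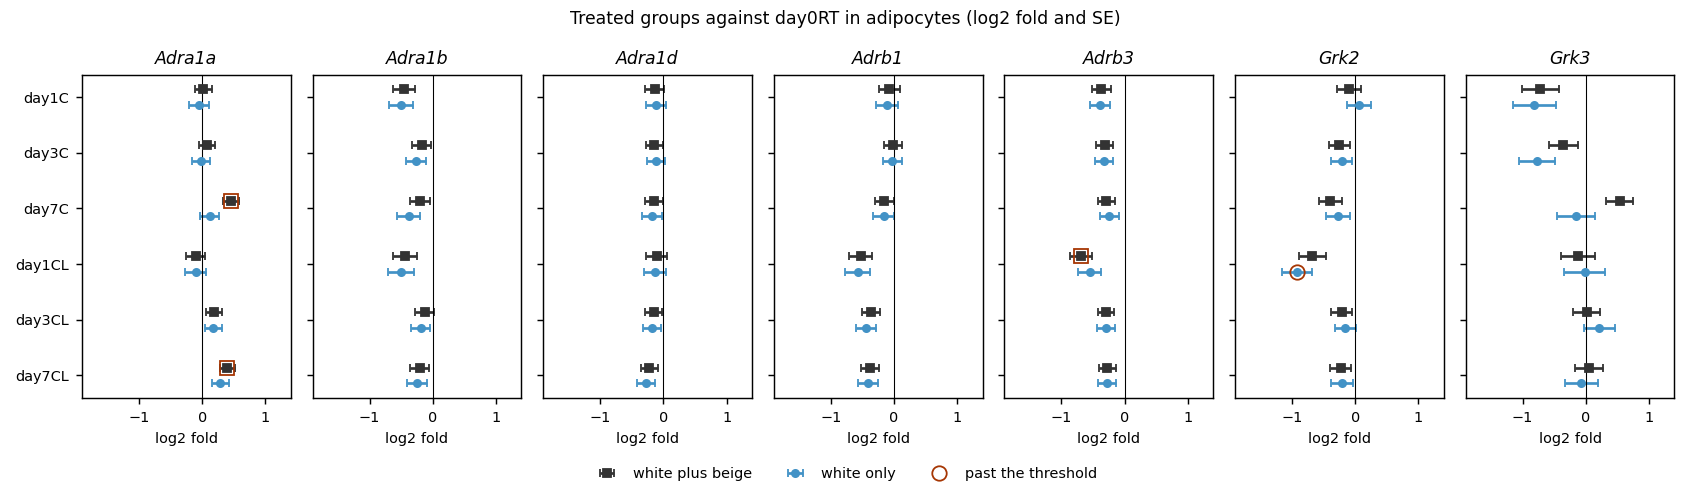
Log2 fold change and SE of the 7 tested genes in each treated group against day0RT, over white and beige nuclei together (squares) and in white nuclei alone (circles), with rings around values past the threshold. Rings among the squares are at *Adra1a* at day 7 of cold (0.45) and CL (0.40) and at *Adrb3* at day 1 of CL (-0.69), and among the circles at *Grk2* at day 1 of CL (-0.92).

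CL was compared with cold at the same day in the same libraries. None of the 7 genes was called at day 1, 3 or 7, where 0.922%, 1.46% and 0.111% of all genes were called. At an unadjusted p under 0.05 edgeR gave 3, 2 and 1 of the 7, and 1843, 1741 and 1226 of all 14429 genes. DESeq2 called 0 of the 7 at each day, with 2, 1 and 0 of the 7 left without an adjusted p. The smallest adjusted p was that of *Adrb1* at day 3, where CL was lower than cold by a log2 fold change of -0.35 (SE 0.113, adjusted p = 0.112). *Grk2* was at -0.57 at day 1 (SE 0.213, adjusted p = 0.194) and *Grk3* at -0.49 at day 7 (SE 0.164, adjusted p = 0.296). *Adra1a* differed by -0.06 at day 7 (SE 0.105, adjusted p = 0.944) and *Adrb3* by -0.32 at day 1 (SE 0.17, adjusted p = 0.423).

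In white adipocyte nuclei alone, 2 of these differences passed. The share of all genes called in white nuclei alone is not given for these comparisons, so the 2 calls cannot be set against it. *Grk2* was lower in day1CL than in day1C by a log2 fold change of -0.98 (SE 0.233, edgeR adjusted p = 0.02), and it was also lower than in day0RT, by -0.92 (SE 0.241, adjusted p = 0.0203). The day1CL mice measured 29.0, 31.8 and 42.1 CPM, against 76.4, 67.0 and 80.4 CPM in day0RT and 70.6, 103 and 77.9 CPM in day1C. These day1CL mice had 23, 63 and 559 white nuclei, so the first 2 levels rest on few counts. With its 6 beige nuclei added, the first mouse was at 81.9 CPM. The 5 B cell genes other than *Ebf1*, none at 0, summed in the same white nuclei to 58.0 to 76.3 CPM in day1CL and 115 to 162 CPM in day0RT, and *Grk2* is itself highest in B cells; their part in the result was not tested. *Grk3* was higher in day3CL than in day3C by 0.99 (SE 0.201, adjusted p = 0.00127), with 50.8, 34.8 and 30.4 CPM against 17.1, 15.8 and 20.0 CPM. The 5 dendritic cell genes summed to 80.3 to 86.9 CPM in day3CL and 91.1 to 102 CPM in day3C, and the 5 macrophage genes to 43.1 to 55.4 CPM and 50.7 to 63.3 CPM, both lower in day3CL on average. The 6 beige adipocyte genes, none at 0, were higher, at 264.0 to 280.9 CPM in day3CL and 193.5 to 239.5 CPM in day3C. *Grk3* is itself higher in beige than in white adipocytes, and the part of these lists in the result was not tested.

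Each cluster was also tested for any difference between the treated groups and day0RT. In white adipocytes 3 of 7 tested genes were called, *Grk3* (adjusted p = 0.00308), *Adrb1* (0.0192) and *Grk2* (0.0401), against 10.9% of all 13508 genes. *Grk3* in white nuclei was lower in all cold mice of day 1 and day 3 (5.70 to 24.6 and 15.8 to 20.0 CPM) than in day0RT (26.0 to 44.7 CPM). *Adrb1* was lower in every day7CL mouse (55.7 to 74.3 CPM) than in day0RT (74.5 to 103 CPM). These 3 calls were not made without the 3 low-lymphocyte mice (adjusted p = 0.129, 0.105 and 0.401 for *Grk3*, *Adrb1* and *Grk2*), and DESeq2 called none of the 7, of which it left 2 without an adjusted p. The call of *Grk2* was also lost without any of 7 single mice, which were day0RT replicate 3, day1C replicates 2 and 3, day1CL replicates 1, 2 and 3 and day3CL replicate 2 (adjusted p from 0.0527 to 0.352, the highest without day1CL replicate 3), and that of *Adrb1* without day1CL replicate 3 (0.059) or day3CL replicate 3 (0.061).

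No gene of the 8 was called in another cluster. Beige adipocytes, without day1CL, had 6 tested genes, of which *Grk3* had the smallest adjusted p (0.229), and 6.04% of all genes were called. B cells had 2 tested genes, with *Grk2* at adjusted p = 0.26 and 2.08% of all genes called. In Cd4 T cells (0.0624% of genes called), Cd8 T cells (0.125%), the Tcell cluster (0.0172%) and dendritic cells (0.117%) a single gene of the 8 was tested. Macrophages had 2 tested genes and 0% of all genes called, with 188 genes at an unadjusted p under 0.05. In APC1 (0%) and APC2 (0.0991%) none of the 8 had enough counts, so a change of *Adra1b*, *Adra1d* or *Adra2a* in these clusters was not detectable at this depth. At an unadjusted p under 0.05 edgeR gave 1 of the genes in B cells and 1 in beige adipocytes and 0 in the other clusters besides white adipocytes. Of all genes it gave 1659 of 11502 in B cells and 823 of 4121 in beige adipocytes. DESeq2 called 0 of the 8 in each of these clusters. Endothelial and VSMC clusters had too few libraries in some groups for this test.

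Peaks of the 8 genes were tested in the same way over white and beige nuclei together. Of 31 tested peaks 3 were called, against 10.5% of all 47835 peaks. The *Adra1a* peak at chr14:66657406-66657923, printed above, was called (adjusted p = 0.000619), with 6.65, 2.79 and 2.74 CPM in day0RT, 15.1, 11.8 and 13.7 CPM in day7C and 10.4, 8.88 and 10.7 CPM in day7CL. The log2 fold change was 1.80 in day7C (SE 0.503, adjusted p = 0.0223) and 1.39 in day7CL (SE 0.508, adjusted p = 0.0905). This is also a peak that was higher in beige than in white adipocytes. In white nuclei alone it had too few counts to be tested. None of the 23 tested peaks of the 8 genes was called there, where 2473 of all 32541 tested peaks were called.

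The *Adrb3* peak at chr8:27239255-27240149 lay 10114 bases upstream of the start of transcript Adrb3-201, within the noncoding transcript Adrb3-205 and the antisense gene *Gm45470*, and strand cannot be told in these data. It was called with an adjusted p of 0.0262. The day0RT mice measured 38.2, 41.9 and 26.5 CPM and the day1CL mice 16.1, 4.42 and 12.4 CPM, with a log2 fold change of -1.46 (SE 0.327, adjusted p = 0.00267). Group means in the other treated groups were 19.4 to 24.5 CPM, all below the mean of 35.5 CPM in day0RT. The start peak of *Adrb3* (chr8:27227912-27228846) was at 41.8 CPM ± 15.3 in day0RT and 35.0 CPM ± 11.5 in day1CL and was not called (adjusted p = 0.428).

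The *Adrb1* peak at chr19:56720312-56720918, 1584 bases upstream of the coding start, was called with an adjusted p of 0.0326. It measured 19.9, 19.5 and 16.4 CPM in day0RT and 0, 0 and 7.33 CPM in day1CL, the zeros being in the mice with the fewest nuclei, and the log2 fold change in day1CL was -1.49 (SE 0.445, adjusted p = 0.0464). Without the 3 low-lymphocyte mice the adjusted p was 0.0837 for the *Adrb1* peak and 0.21 for the *Adrb3* peak. With no filter on low counts it was 0.134 and 0.159. Leaving out single mice, the call of the *Adrb3* peak was lost without day0RT replicate 1 (0.095) or 2 (0.0738) and without day1CL replicate 2 (0.0648) or 3 (0.136). That of the *Adrb1* peak was lost without day1C replicate 1, day1CL replicate 2, day3C replicate 2 or 3, or day3CL replicate 2 (0.0515 to 0.0711), while the *Adra1a* peak was lost with DESeq2 alone (0.0677), apart from white nuclei alone, where it had too few counts.

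The other genes of the pathway were taken from a list of 37, comprising further receptors, G proteins, adenylyl cyclases, protein kinase A subunits, phospholipases, phosphodiesterases, arrestins and genes of noradrenaline breakdown, of which 34 were tested in adipocytes. Between beige and white adipocytes 10 were higher and 8 lower, where 28.8% of all genes were called in either direction, and the median log2 fold change was 0.01. The largest differences upward were *Prkar2a*, a regulatory subunit of protein kinase A (0.88, adjusted p = 9.63e-11), and the adenylyl cyclases *Adcy9* (0.61, adjusted p = 7.33e-14) and *Adcy3* (0.56, adjusted p = 2.94e-10). Downward they were the adenylyl cyclase *Adcy5* (-0.76, adjusted p = 2.04e-15), *Rapgef3*, a guanine nucleotide exchange factor that cyclic AMP activates (-0.76, adjusted p = 7.6e-06), and the Gi subunit *Gnai3* (-0.45, adjusted p = 0.00032).

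Against day0RT, over white and beige nuclei together, *Adcy5* fell in all 6 treated groups. The log2 fold changes were -0.51 in day1C, -0.42 in day3C, -0.78 in day7C, -0.78 in day1CL, -0.93 in day3CL and -0.90 in day7CL, with adjusted p from 1.27e-08 to 0.0348. *Rapgef3* fell in day3C (-0.82), day7C (-1.05), day3CL (-0.76) and day7CL (-0.99). *Adcy9* rose in day7C (0.50), day3CL (0.57) and day7CL (0.51), and the phospholipase *Plcb4* rose in day7C (0.50) and day7CL (0.46). *Prkar2a* rose in day7C (0.79), *Grk5* in day3CL (0.33) and the phosphodiesterase *Pde4d* in day7CL (0.28), while *Adcy3* fell in day3CL (-0.45) and *Adcy6* in day7CL (-0.63). The numbers higher and lower among the 34 were 0 and 1 in day1C (0.34% of all genes called), 0 and 2 in day3C (1.67%), 3 and 2 in day7C (5.09%), 0 and 1 in day1CL (2.61%), 2 and 3 in day3CL (4.77%), and 3 and 3 in day7CL (7.81%).

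Several of these calls depended on single mice or settings. That of *Adcy5* was made in all 29 alternatives in day7C, day3CL and day7CL, in 27 in day1CL (lost without day1CL replicate 3, adjusted p = 0.0915), and in 22 in each of day1C and day3C. In day1C it was lost without day0RT replicate 2 or 3 or day1C replicate 2 or 3 (0.134 to 0.322), and in day3C without day0RT replicate 2 or 3 or day3C replicate 1 (0.109 to 0.372). *Rapgef3* was called in 25 to 28 of 29 alternatives and lost its call in each of its 4 groups without day0RT replicate 3 (0.0704 to 0.29), and in day3CL also without day3CL replicate 2 (0.0522). *Adcy9* lost its call in day7C and day7CL without day0RT replicate 1 (0.0924 and 0.0554), and *Adcy9*, *Plcb4*, *Adcy6* and *Pde4d* lost theirs in day7CL without day7CL replicate 1 (0.17, 0.0662, 0.168 and 0.187). *Prkar2a* was called in 22 of 28 alternatives, with a log2 fold change of 0.29 in white nuclei alone (adjusted p = 0.69), and was not called without day0RT replicate 1 or 3 or day7C replicate 1 (0.109 to 0.114). *Pde4d* was called in 23 of 28 and was also lost without any single day0RT mouse (0.0527 to 0.112). *Adcy3* was called in 21 of 29, not without day0RT replicate 1 or 2 or day3CL replicate 2 or 3 (0.0532 to 0.173). *Grk5* was called in 16 of 29, not without any single day0RT mouse, day3CL replicate 2 or 3, day1C replicate 2 or day7C replicate 2 (0.0526 to 0.307). Without the 3 low-lymphocyte mice, calls were lost for *Adcy5* in day3C (edgeR adjusted p = 0.389) and day1CL (0.0577). In day3CL those of *Rapgef3* (0.0534), *Adcy3* (0.122) and *Grk5* (0.33) were lost. Some calls were also lost with DESeq2, promoter peaks only or white nuclei alone. For *Adcy5* in day1C the adjusted p was then 0.0745, 0.623 and 0.0522, and for *Adcy9* in day7C in white nuclei alone it was 0.181.

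Between CL and cold, *Adcy5* alone of the 34 differed, lower in day3CL than in day3C by a log2 fold change of -0.51 (SE 0.108, adjusted p = 0.00257). It was not called without day3C replicate 3 (0.0541) or day3CL replicate 2 (0.0923). In white adipocytes alone 6 of the 34 were called for any treated group, where 10.9% of all genes were, among them *Adcy5* (adjusted p = 6.13e-09), *Adcy9* (0.00193) and *Rapgef3* (0.00352). Beige adipocytes had 3 of 21 called (*Adcy3*, *Adcy6* and *Prkar2b*), where 6.04% of all genes were, and B cells had 2 of 29 (*Pde4d* and *Plcb1*), where 2.08% were.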

How the data were processed

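Nuclei of iWAT from 21 mice were profiled by snATAC-seq. The authors deposited a binary matrix of 189598 peaks by 32552 nuclei, here treated as counts of nuclei with reads in a peak, with the mouse, group and cluster of each nucleus in a metadata file, since the deposited samples are 4 sequencing lanes and carry no group. The submitters' processing notes name Bowtie2, SAMtools, MACS2 and Signac without versions, and mm10. An entry of 1 cannot tell 1 read from several, which flattens differences at widely open peaks. A peak could count for more than 1 gene, as 6498 peaks did.

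Counts were summed per mouse and cluster over GENCODE genes of GRCm38 and divided by the gene counts of the library for CPM. The two-sided quasi-likelihood test of edgeR 4.0.16 (R 4.3.3) was run on all genes or all peaks with TMM factors. The filterByExpr settings were a proportion of 0.7, a total of 15 and a minimum count of 10, the prior count was 0.125, and Benjamini-Hochberg adjustment covered every feature of a comparison. p-values under 0.05 after adjustment were called. For treated groups white and beige nuclei were summed. The study states that its batches of snATAC-seq were run independently, and no model of the treated groups held a term for batch. Neighbouring clusters were compared by 100000 sign flips, exactly below 10 mice, with scipy 1.17.1. Scripts were tested on simulated data. Tables were handled with numpy 2.4.6 and pandas 2.3.3 in Python 3.11.15. DESeq2 1.42.0, RLE factors, no filter, promoter peaks only (within 2000 bases of the gene start, which for *Adrb3* is the start of a noncoding transcript), nuclei of at least 1000 counts, libraries of at least 30 nuclei, the mouse as a block, white nuclei alone, only the groups compared and leaving out each mouse were alternatives. Leaving out the 3 low-lymphocyte mice, and single mice for the peaks, was chosen after seeing the data.

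All 8 genes are named. Of the pathway list, up to 3 called genes in each direction per comparison, and per gene of the 8 the 3 genes most like it, its start peaks and its called peaks are named, except 1 of the genes most like *Adra2a*, which is not reported here. The genes and lists were chosen with earlier results of these data known. Precision is limited by the nuclei per library, and means carry the SD between mice.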

Additional observations from a re-analysis of the deposited data

Results flagged for a closer look

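In the cluster labelled VSMC, whose libraries come from 10 mice, the highest mouse lay far from the others in 3 of the 8 groups of values examined for such a gap. It measured 180 CPM for *Adra1a*, 7.63 CPM for *Adra2a*, where every other mouse was at 0, and 162 CPM for *Grk2*. The gap to the next mouse, divided by the range, exceeded 0.466 in each. Chance gives such a gap in about 1 in 20 groups of normally distributed values. That rate does not hold for *Adra2a*, whose value is 1 count, since a single count among zeros always gives such a gap. The values of *Adra1a* and *Grk2* rest on 21 and 30 counts, each with 3 of 10 mice at 0. They are not known to follow that distribution either. The cluster has 283 nuclei in all.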

How the results depend on the processing

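The 4 genes called between beige and white adipocytes were 4 with DESeq2, RLE factors, no filter, libraries of at least 30 nuclei, nuclei of at least 1000 counts and the mouse as a replicate block, 1 with promoter peaks only, and 3 to 4 when each mouse was left out. With the block, 3828 genes were called in all, against 3674. The block changed no call of the 8 genes and gave 12 called peaks in place of 11. The numbers called against day0RT changed most with the peaks and nuclei summed. With promoter peaks only they were 0 in day7C, 0 in day1CL and 0 in day7CL. In white nuclei alone they were 0 in day7C and 0 in day7CL, and CL against cold gave 1 at day 1 and 1 at day 3. DESeq2 gave 0 in day7CL, where *Adra1a* had a log2 fold change of 0.40 (adjusted p = 0.0878), and 0 for any treated group in white adipocytes, with 2 of the 7 left without an adjusted p. With only the groups compared day1CL gave 2, and without the 3 low-lymphocyte mice day1CL gave 0 and any treated group in white adipocytes 0. Leaving out single mice gave 0 to 1 in each of day7C, day1CL and day7CL, 1 to 3 for white adipocytes, and 0 to 0 in every other comparison of the genes. Of the 11 peaks called between beige and white adipocytes, no filter gave 24 and single mice left out gave 8 to 11. Of the 3 called with treatment, DESeq2 gave 0, white nuclei alone gave 0, and single mice left out gave 2 to 5, the highest without day7CL replicate 3. With promoter peaks only, *Adra1d* (0.19, adjusted p = 0.456) and *Adcy9* (-0.07, adjusted p = 0.845) between beige and white and *Adcy3* in day3CL (0.094, adjusted p = 0.961) reversed, by construction fewer peaks. The cause of the other changes was not tested.

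Over all genes DESeq2 called 9 in day1C, 53 in day3C, 300 in day7C, 145 in day1CL, 176 in day3CL and 234 in day7CL, against 49, 241, 734, 376, 688 and 1127 with edgeR, and for CL against cold 11, 17 and 0 against 133, 210 and 16. Promoter peaks only gave 0, 35, 97, 79, 110 and 131 in the same order, then 32, 69 and 0, and 1093 between beige and white. Without the 3 low-lymphocyte mice day3C gave 67, day1CL 3, day3CL 233, and CL against cold 0 at day 1 and 30 at day 3. White nuclei alone gave 31 in day1C, 150 in day3C, 255 in day7C and 6 for CL against cold at day 7, only the groups compared gave 26 there, and nuclei of at least 1000 counts gave 9 there and 29 in day1C. Leaving out single mice gave 0 to 80 in day1C, 75 to 262 in day3C, 374 to 769 in day7C, 3 to 410 in day1CL, 237 to 737 in day3CL, 254 to 1292 in day7CL, and 0 to 169, 31 to 236 and 1 to 18 for CL against cold. Of all peaks, DESeq2 called 294, no filter 3334 and white nuclei alone 2473 with treatment, against 5041. Between beige and white no filter called 44231, against 6694. Depth limits what can be said of *Adra2a* and of the 2 day1CL mice with few adipocytes.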
